A study of Mus musculus with 8 samples.

Results

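Glycolysis converts glucose to pyruvate and, through lactate dehydrogenase, to lactate. Smooth muscle of large arteries is known for forming lactate even where oxygen is plentiful. Several genes of the pathway are textbook targets of the hypoxia-inducible factor HIF-1, and cartilage, a tissue with few blood vessels, relies on glycolysis for its energy. Described here are 9 enzyme genes of the pathway, Gpi1, Pfkl, Aldoa, Tpi1, Pgk1, Pgam1, Eno1, Pkm and Ldha. They were taken by name and matched without version through their Ensembl gene identifiers. All 9 were found among the 11446 gene identifiers of the 6 deposited tables (Tgfbr2 and Apoe left aside), and 8 of the 9 passed the filter on low values used for the tests. Gapdh, Hk1, Hk2 and the other genes of the pathway were kept in a separate list.

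The cells came from the mouse ascending aorta. The tissue was digested, cells positive for GFP, taken as the smooth muscle cells, were sorted, and droplet libraries were made with the 10x Genomics Chromium system. There were 2 genotypes, both lacking Apoe, a state that raises plasma cholesterol. The first group, labelled Apoe-/-, is called Apoe here. The second, labelled TGFBetaRiSMC-Apoe and called KO here, also carried a knockout of the TGF-beta receptor gene Tgfbr2 specific to smooth muscle. Each genotype was sampled on a diet labelled ND and after 1, 2 and 4 months of a high fat diet (HFD), written 1M, 2M and 4M. The labels give no age, no driver of the knockout or of GFP, and no number of animals in a library. Each genotype and diet had 1 library, 8 in all, so a single level has a counting error but no replicate error.

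The libraries held 1127 to 2659 cells and 9407155 to 19719335 unique molecular identifiers (UMIs), with a median of 6966 to 10988 UMIs in a cell. Levels are UMIs per 1000000 UMIs of the library (CPM), and intervals are 95% intervals that cover counting error only. A gene seen in under 5% of a library's cells is listed at 0 there, so a listing at 0 is not a measured absence. Tgfbr2 and Apoe were removed from most of the tables, and the KO labels were not checked on the targeted gene. The library KO 4M stood apart from the other 7. Its 8 smooth muscle markers summed to 1698 CPM against 25239 to 48772 CPM elsewhere, and its 9 cartilage markers to 33613 CPM against 45.6 to 4384 CPM. Fibroblast markers moved with them, at 13840 CPM in KO 4M and 724 to 5227 CPM in the others. Of 10 macrophage markers, 6 were listed in KO 1M, 2 or fewer in each of the other libraries, and 22 cells of KO 1M held at least 3 markers of another cell type. Of 5 Schwann cell markers only 1 was in the tables, at 239 CPM in KO 4M, 27.5 in Apoe 4M, 20.3 in KO 2M and 0 elsewhere. It was thus listed only in the libraries with the highest cartilage sums, and 1 marker does not show Schwann cells. Of 8 endothelial markers 2 were in the tables, both listed at 0 in KO 4M, with a sum of 52.0 to 84.8 CPM in each of the other 7. No lymphocyte, red cell or dividing-cell marker was in the tables. The part of these differences in the results below was not tested. Values in cells split by their cartilage and contractile UMIs are given further on, also without a test.

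In the Apoe libraries no enzyme, and no gene of the whole table, passed the test of a slope over the months of diet. Pgk1 was nonetheless at 35.4 CPM on ND and 22.5 CPM at 4M. On ND, 1M and 2M the KO level was above the Apoe level for 6 of 8, 8 of 8 and 8 of 8 enzymes listed in both libraries, by at most 1.51-fold. The median gene differed by -0.05, 0.02 and -0.02 in log2 on these diets. The share of all genes higher in KO was not counted. Some of the enzymes' ratios, such as that of Ldha at 1M, lay within counting error. Of 15 citrate cycle genes, 13, 10 and 12 were also higher in KO on these diets. Of 15 other glycolysis and glucose entry genes, 4, 4 and 5 were. At 4M the KO library was split: Ldha, Eno1, Pgk1 and Pgam1 were higher than in Apoe, and Gpi1, Tpi1, Aldoa and Pfkl were lower. In the test of the KO slope over months of HFD 3 of 8 enzymes passed, against 29.9% of all genes. Ldha and Eno1 rose, as did 8.47% of all genes, and Gpi1 fell, as did 21.4%. Without KO 4M no gene of the whole table passed, and the slopes of Ldha, Eno1 and Gpi1 were 0.20, 0.12 and -0.0034 in log2 per month.

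The promoters of these 3 genes are shown because their slopes were the ones that passed, in opposite directions. Each is the 250 bases before the most upstream RefSeq start (GRCm38.p6), 5′ to 3′ on the strand of the gene. Capitals mark ACGTG or its reverse complement CACGT, a form of the core of the element that HIF-1 binds. Other forms of that core, such as GCGTG, were not searched or marked.
Ldha (chr7:46845554-46845803, plus strand): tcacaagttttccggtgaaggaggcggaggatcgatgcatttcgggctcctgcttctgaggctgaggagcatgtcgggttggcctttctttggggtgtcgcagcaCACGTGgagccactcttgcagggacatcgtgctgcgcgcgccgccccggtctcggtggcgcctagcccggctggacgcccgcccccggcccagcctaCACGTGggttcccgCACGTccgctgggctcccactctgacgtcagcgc
Eno1 (chr4:150236458-150236707, plus strand): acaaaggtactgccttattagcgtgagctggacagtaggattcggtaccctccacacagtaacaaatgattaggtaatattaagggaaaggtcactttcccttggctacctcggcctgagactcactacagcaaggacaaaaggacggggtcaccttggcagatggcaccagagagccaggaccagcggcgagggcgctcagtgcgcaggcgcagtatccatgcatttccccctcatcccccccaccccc
Gpi1 (chr7:34230337-34230586, minus strand): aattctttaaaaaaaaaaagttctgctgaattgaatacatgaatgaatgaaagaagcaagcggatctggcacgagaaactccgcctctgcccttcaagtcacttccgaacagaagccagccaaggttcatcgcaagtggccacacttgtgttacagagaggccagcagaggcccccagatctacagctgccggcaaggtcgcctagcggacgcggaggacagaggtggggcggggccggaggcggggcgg

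Over both strands the Ldha sequence held 5 matches to ACGTG, since each of its 2 palindromes CACGTG counts on both strands. The Eno1 and Gpi1 sequences held 0. In windows from 250 bases before to 50 after a start, 6 of the 15 listed starts of the 9 genes had a match, and 5 of the 9 genes had at least 1 such start. These were Ldha (1 of 2 starts), Pgk1 (2 matches), Pgam1 (1 match), Aldoa (2 of 3 starts) and Pkm (1 of 2 starts). Tpi1, Pfkl, Gpi1 and all 3 starts of Eno1 had none. Of all 32851 promoter windows of that length, 19.6% held ACGTG, as did at least 1 window of 21.8% of 27025 genes. A match is a run of letters only, and 250 bases miss more distant elements. A sequence without ACGTG can still hold another form of the HIF-1 core.

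The first enzymes of the series act on the sugar phosphates. Gpi1, glucose-6-phosphate isomerase, turns glucose-6-phosphate into fructose-6-phosphate (ENSMUSG00000036427, GRCm38 chromosome 7, 34201330 to 34230336, minus strand). In the order ND, 1M, 2M and 4M its level was 330.3, 299, 305 and 282 CPM in the Apoe libraries and 309, 309, 308 and 118 CPM in the KO libraries. KO 4M lay far below the other 7 libraries, which fell between 282 and 330.3 CPM. The ratio of KO to Apoe was 0.937 on ND (0.897 to 0.979), 1.03 at 1M, 1.01 at 2M and 0.419 at 4M (0.396 to 0.443). Counted in cells, 67.9% of KO 4M cells held a Gpi1 UMI against 82.7% to 93.9% elsewhere. With each cell thinned to 2900 UMIs, which left out no cell, the shares were 28.8% and 55.8% to 61.5%. No cell type lacks these enzymes, so no background share could be set beside them.

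Pfkl, the liver-type subunit of phosphofructokinase, belongs to the enzyme that commits sugar to glycolysis (ENSMUSG00000020277, chromosome 10, 77986947 to 78010083, minus strand). It was at 38.9, 37.0, 38.4 and 44.0 CPM in the Apoe libraries and at 49.0, 52.2, 49.96 and 35.8 CPM in the KO libraries, in the same order. The first 3 KO libraries were thus above all 4 Apoe libraries, and the share of all genes with such a separation was not counted. KO 4M was the lowest of the 8, with an interval (33.1 to 38.6) that overlapped those of Apoe ND, 1M and 2M. The ratio of KO to Apoe was 1.26, 1.41 and 1.30 on ND, 1M and 2M, and 0.813 at 4M (0.718 to 0.922).

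Aldolase A, from Aldoa, splits fructose-1,6-bisphosphate into triose phosphates (ENSMUSG00000030695, chromosome 7, 126795234 to 126800751, minus strand). The Apoe libraries held 768, 757, 793 and 771 CPM and the KO libraries 845, 845, 944 and 487 CPM. Triose phosphate isomerase, from Tpi1, interconverts the trioses (ENSMUSG00000023456, chromosome 6, 124810586 to 124814296, minus strand). Its levels were 292, 289.8, 297 and 294 CPM in Apoe and 357, 328, 381 and 160.3 CPM in KO. Both genes had the same order as Pfkl, with KO above every Apoe library on ND, 1M and 2M and KO 4M below every other library. How many genes of the whole table have this order was not counted. The Apoe range was narrow for both. At 4M the ratio of KO to Apoe was 0.631 for Aldoa (0.612 to 0.651) and 0.546 for Tpi1 (0.518 to 0.575). On the other diets it was 1.10, 1.12 and 1.19 for Aldoa and 1.23, 1.13 and 1.28 for Tpi1, each with an interval above 1.

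The later enzymes yield ATP and pyruvate. Pgk1, phosphoglycerate kinase, makes the first ATP (ENSMUSG00000062070, chromosome X, 106187100 to 106203699, plus strand). It stood at 35.4, 31.7, 26.5 and 22.5 CPM in Apoe ND to 4M and at 53.6, 45.8, 28.3 and 54.9 CPM in KO. Both genotypes were lower at 2M than on ND, and the KO libraries apart from 2M were above all 4 Apoe libraries. The share of all genes with such an order was not counted. The ratio of KO to Apoe was 1.51, 1.44, 1.07 (0.942 to 1.21) and 2.44 (2.10 to 2.84) on the 4 diets. Pgam1, phosphoglycerate mutase, moves the phosphate of 3-phosphoglycerate (ENSMUSG00000011752, chromosome 19, 41911923 to 41918660, plus strand). It was listed in 4 libraries only, at 5.52 CPM in Apoe 1M, 7.12 in Apoe 4M, 5.27 in KO ND and 23.9 in KO 4M, and at 0 in the other 4. The KO to Apoe ratio at 4M was 3.35 (2.59 to 4.4), and the gene did not pass the filter for the fits.

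Eno1, alpha-enolase, forms phosphoenolpyruvate (ENSMUSG00000063524, chromosome 4, 150236721 to 150248879, plus strand). The Apoe libraries held 226, 231, 249.8 and 223 CPM and the KO libraries 314, 291, 371 and 498 CPM. All 4 KO libraries were above all 4 Apoe libraries, and the share of all genes with such a separation was not counted. The ratio was 1.39 (1.32 to 1.46) on ND, 1.26 (1.20 to 1.32) at 1M, 1.49 (1.43 to 1.54) at 2M and 2.24 (2.13 to 2.35) at 4M. After thinning, a UMI was found in 45.2% to 49.7% of cells in Apoe and in 54.5% to 67.4% in KO. The unthinned shares were 73.3% to 85.3% and 85.5% to 91.9%.

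Pkm encodes pyruvate kinase of muscle type, whose M1 and M2 forms a 3′ count does not separate (ENSMUSG00000032294, chromosome 9, 59656368 to 59679375, plus strand). It was at 675, 623, 688 and 675 CPM in the Apoe libraries. The KO libraries held 666, 665, 859 and 648 CPM, where KO 2M was the only library that stood out. The KO to Apoe ratio was 1.25 at 2M (1.22 to 1.28) and 0.960 at 4M (0.931 to 0.990). The 4M ratio turned to 1.15 with median of ratios scaling. Ldha, the lactate dehydrogenase subunit that favours lactate formation (ENSMUSG00000063229, chromosome 7, 46841475 to 46855627, plus strand), was at 285, 298, 363 and 341 CPM in Apoe. In KO it was at 319, 311, 424 and 595 CPM. The ratio of KO to Apoe was 1.12, 1.04 (0.999 to 1.09), 1.17 and 1.74 (1.68 to 1.81) on the 4 diets. KO ND and KO 1M fell inside the Apoe range, and KO 2M and KO 4M lay above it. Ldha made up 61.9% to 69.2% of the summed UMIs of Ldha and Ldhb in Apoe, 57.8% to 62.4% in KO ND, 1M and 2M, and 87.6% in KO 4M.

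**Figure D1:**
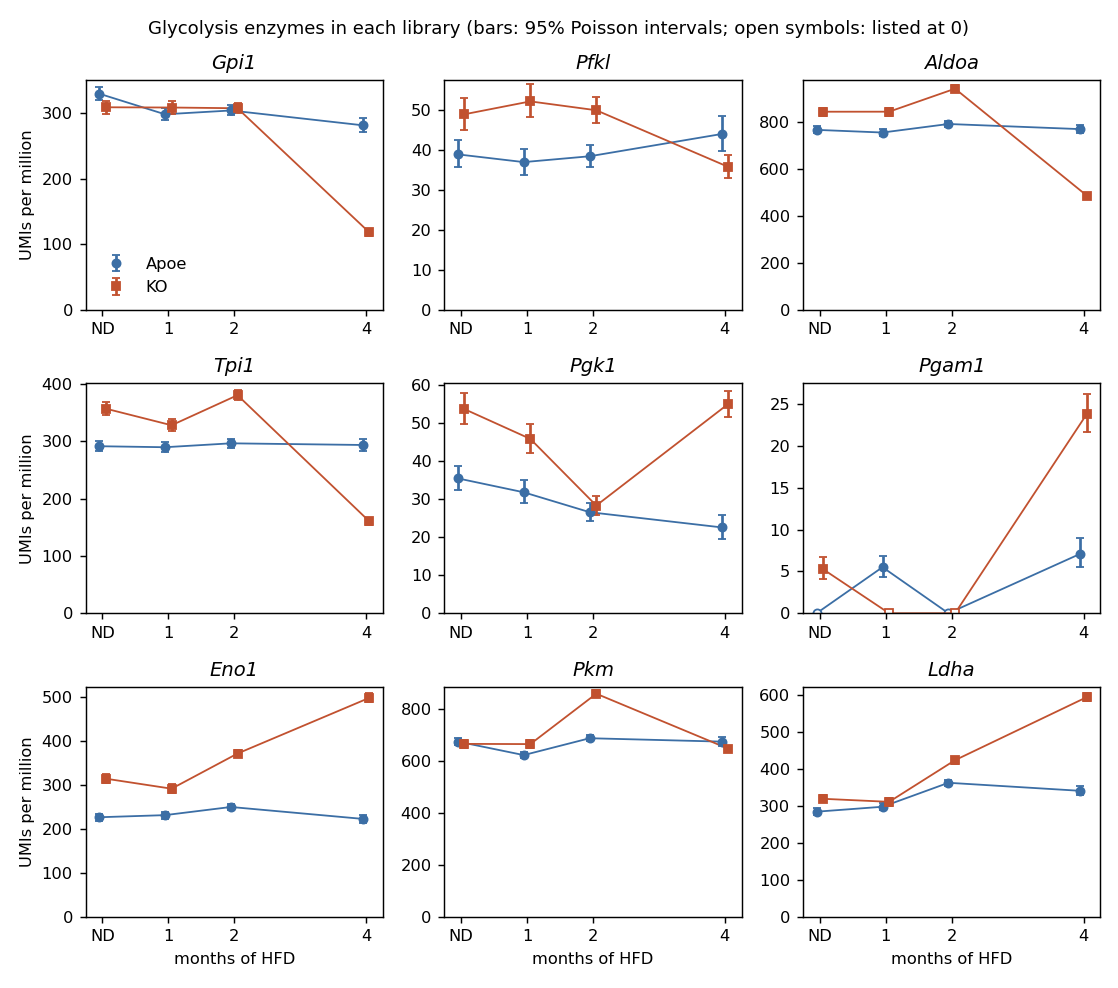
UMIs per 1000000 UMIs of each of the 9 enzymes against months of HFD (ND at the left), Apoe as blue circles and KO as red squares, with 95% Poisson intervals and open symbols where a gene is listed at 0. In KO 4M, Gpi1 (118), Tpi1 (160.3) and Aldoa (487) are below all other libraries while Eno1 (498), Ldha (595) and Pgam1 (23.9) are above them.

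KO 4M had its own scale, since its median gene was lower. Over the 8624 genes listed in both 4M libraries the median log2 difference of KO from Apoe was -0.24, against -0.05, 0.02 and -0.02 on ND, 1M and 2M. Relative to the median gene, the 4M ratios were 0.493 for Gpi1, 0.642 for Tpi1, 0.743 for Aldoa, 0.957 for Pfkl and 1.13 for Pkm. For Ldha the relative ratio was 2.05, for Eno1 2.63, for Pgk1 2.87 and for Pgam1 3.95. The lower side therefore shrank to 3 enzymes, Gpi1, Tpi1 and Aldoa, with Pfkl close to the median gene. A log2 difference of at least 1 was seen at ND in 0 of 8 members listed in both libraries (2.12% of all such genes), at 1M in 0 of 8 (1.53%) and at 2M in 0 of 8 (3.33%). At 4M it was seen in 4 of 9 (23.6%), higher in KO for Eno1, Pgk1 and Pgam1 and lower for Gpi1. The median log2 difference over the members was 0.23, 0.17, 0.29 and -0.06 on ND, 1M, 2M and 4M.

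**Figure D2:**
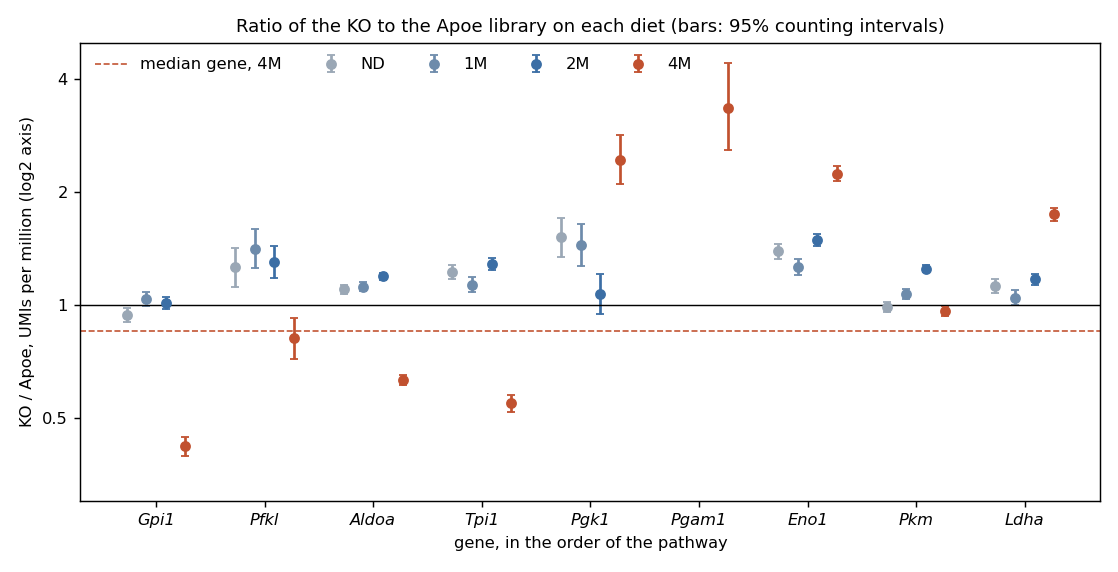
Ratio of the KO to the Apoe library in CPM for each enzyme on a log2 axis, one point per diet with 95% counting intervals, the dashed line marking the median gene at 4M. The 4M points spread from 0.419 (Gpi1) to 3.35 (Pgam1), while the ND, 1M and 2M points lie between 0.937 and 1.51.

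The summed level of the 9 enzymes hid this split. It was 2650, 2571, 2759 and 2659 CPM in the Apoe libraries and 2919, 2848, 3365 and 2620 CPM in the KO libraries. In CPM the library with the divergent makeup thus had a total inside the Apoe range. This depends on scaling. The median of ratios factor was 0.845 in KO 4M and 1.01 to 1.05 in the Apoe libraries. Dividing by it raises the KO 4M total relative to the Apoe totals. Within the UMIs of the 9 genes, a share that does not depend on how libraries are scaled, Eno1 and Ldha together took 19.3% to 22.2% in Apoe and 21.2% to 23.6% in KO ND, 1M and 2M. In KO 4M they took 41.7% (Clopper-Pearson interval 41.3% to 42.2%). Aldoa, Tpi1 and Gpi1 took 50.5% to 52.4% in Apoe, 48.5% to 52.1% in the first 3 KO libraries and 29.2% in KO 4M (28.8% to 29.6%). These groupings of genes were chosen after their values were seen and carry no test.

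**Figure D3:**
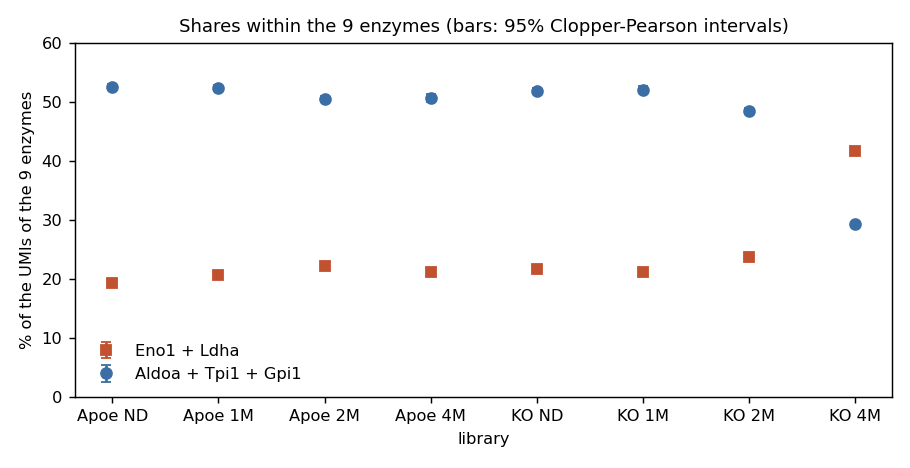
Percent of the UMIs of the 9 enzymes taken by Eno1 plus Ldha (red squares) and by Aldoa plus Tpi1 plus Gpi1 (blue circles) in each library, with 95% Clopper-Pearson intervals. The pairs are near 20% and 50% in 7 libraries and cross in KO 4M, at 41.7% and 29.2%.

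Tests across libraries used limma on log2(CPM + 1) over 9253 genes, with Benjamini-Hochberg adjusted p-values, and 8 of the members entered. No library has a replicate, so the error comes from how far libraries lay from an additive or straight-line model. For the genotype effect with diet as a factor, 0 of 8 members passed, against 0.0216% of all genes (2 of 9253, with 1047 at an unadjusted p under 0.05). The highest positive effects were Eno1, 0.63 ± 0.18 (SE), with an adjusted limma p of 0.351, and Pgk1, 0.61 ± 0.21, with 0.399. Both were higher in KO on 4 of 4 diets. Ldha followed at 0.31 ± 0.17 (0.512), also higher on 4 of 4. The other 5 ran from -0.32 (Gpi1, adjusted limma p 0.635), slightly larger in size than that of Ldha, to 0.22 (Pfkl). Without KO 4M, 885 genes passed, 340 of them higher in KO (3.67%). Then 2 of 8 members passed on the higher side, Eno1 at 0.46 (adjusted limma p 0.0296) and Pfkl at 0.39 (0.0441). Tpi1 at 0.28 (0.0656) and Aldoa at 0.18 (0.126) did not, and both had the opposite sign with KO 4M included (-0.01 and -0.03).

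For the slope within KO, in log2 per month of HFD, 3 of 8 members passed against 29.9% of all genes. Ldha rose by 0.25 ± 0.06 (SE) per month (adjusted limma p 0.0297) and Eno1 by 0.19 ± 0.06 (0.0488), 2 of 8 on a side that held 8.47% of all genes. Gpi1 fell by 0.36 ± 0.09 per month (0.0319), 1 of 8 on a side that held 21.4%. With median of ratios scaling, the whole table split into 1223 higher and 1591 lower in place of 784 and 1981, and the calls of Ldha, Eno1 and Gpi1 held. Tpi1 had a KO slope of -0.28 (0.0504), Aldoa -0.20 (0.0891) and Pfkl -0.12 (0.109), and none of these passed. Pkm and Pgk1 had slopes of 0.0003 and 0.0024, although their single libraries differed widely. Without KO 4M these were 0.18 for Pkm (adjusted limma p 0.567) and -0.45 for Pgk1 (0.427). Without KO 4M, 0 genes of the table passed in limma (885 at an unadjusted p under 0.05). By rank of time, or without both 1M libraries, 0 genes passed as well (3002 and 2352 at an unadjusted p under 0.05). The call of Eno1 was lost in 11 of its 15 alternatives, these included, with adjusted limma p from 0.0280 to 0.702.

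For the Apoe slope 0 of 8 members passed, against 0% of all genes in limma, 618 of which had an unadjusted p under 0.05. The members ran from -0.16 ± 0.11 for Pgk1 to 0.07 ± 0.06 for Ldha. For a common slope 0 of 8 passed against 0.0108% (1 gene, with 2398 at an unadjusted p under 0.05). The difference of slopes, KO minus Apoe, tests directly whether the genotypes differ over time, and 0 of 8 passed there, against 0% of all genes in limma (2293 at an unadjusted p under 0.05). It was 0.17 for Ldha (adjusted limma p 0.240), 0.19 for Eno1 (0.201) and -0.31 for Gpi1 (0.199). So a KO slope that passed beside an Apoe slope that did not is not a shown difference between the genotypes.

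**Figure D4:**
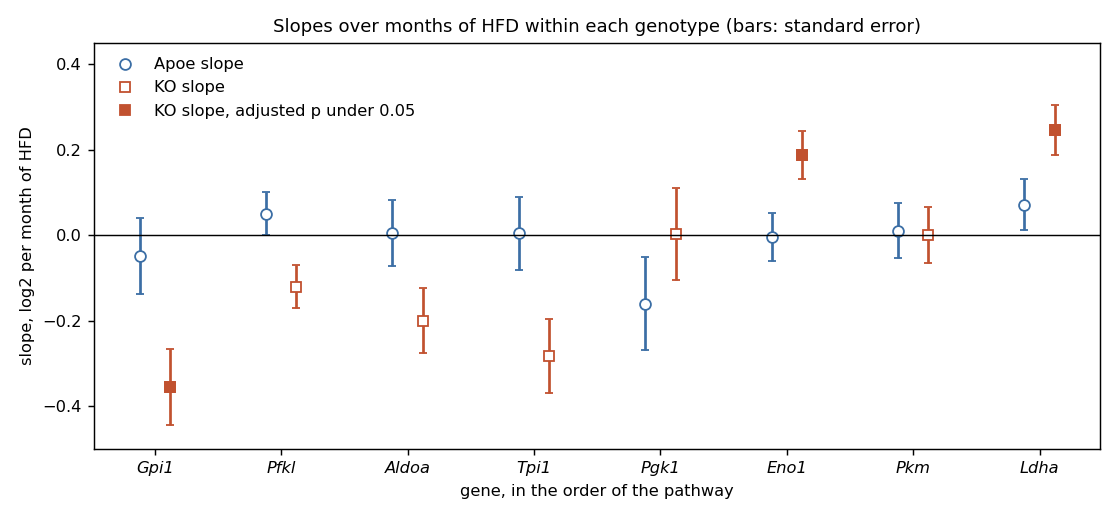
Slope in log2 per month of HFD for the 8 enzymes tested, Apoe as blue circles and KO as red squares, with the standard error as bars and filled symbols where the adjusted limma p is under 0.05. Filled symbols are the KO slopes of Gpi1 (-0.36), Eno1 (0.19) and Ldha (0.25), and all Apoe slopes lie between -0.16 and 0.07.

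Since KO 4M held mostly cells with cartilage transcripts, the members were also read in cells split by their cartilage and contractile UMIs. A cell was put on the cartilage side where its summed UMIs of 9 cartilage genes exceeded those of 6 contractile genes, and otherwise on the contractile side. This is a range and not a cell type. Only 3 libraries had at least 50 cells on each side. Apoe 4M had 120 cartilage-side and 1115 contractile-side cells (29 near the limit), KO 2M had 61 and 2192 (8 near it) and KO 4M had 1484 and 93 (13 near it). Median UMIs in a cell were 9745 and 6826, 15982 and 7540, and 11369 and 7322 on the cartilage and contractile sides of these libraries. No doublet caller was run, and free RNA was not removed.

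Gpi1 and Tpi1 were lower on the cartilage side of all 3 libraries. Gpi1 was at 106 against 309 CPM in Apoe 4M, 109 against 319 in KO 2M and 113 against 245 in KO 4M. Tpi1 was at 145 against 317, 160.0 against 392 and 153 against 339 CPM. Aldoa was lower too, at 401 against 828, 670.3 against 958 and 472 against 826 CPM, and so was Pkm, with a ratio of 0.64 in the Apoe library and of 0.84 (2M) and 0.83 (4M) in the KO libraries. Over all listed genes the median log2 difference between the sides was -0.40, -0.48 and -0.12 in Apoe 4M, KO 2M and KO 4M. In the same order, 2216 of 9481, 2992 of 9253 and 1517 of 9885 genes were lower on the cartilage side by at least 1 in log2. In KO 2M, Aldoa was thus close to the median gene and Pkm was above it. The low ratios of Gpi1 (0.34, 0.34 and 0.46) and Tpi1 (0.46, 0.41 and 0.45) were thus found in both genotypes.

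Ldha and Eno1 had other cartilage to contractile ratios in the Apoe library than in the KO libraries. Ldha was at 346 CPM on the cartilage side and 340.2 on the contractile side of Apoe 4M (ratio 1.02, 0.918 to 1.13). In KO 2M it was at 808 and 404 CPM (2.00, 1.85 to 2.16), and in KO 4M at 603 and 406 CPM (1.49, 1.33 to 1.67). Eno1 was at 159 and 232 CPM in Apoe 4M (0.68), at 493 and 365 in KO 2M (1.35) and at 503 and 395 in KO 4M (1.27). Eno1 was therefore lower on the cartilage side in the Apoe library and higher on it in the KO libraries, each with an interval that leaves out 1. Pgk1 had a cartilage to contractile ratio of 1.07 (0.702 to 1.58) in the Apoe library and of 1.70 (2M) and 1.67 (4M) in the KO libraries. With 1 library for each genotype and month, this contrast between genotypes was not tested.

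Compared at 4M within a side, KO against Apoe, Aldoa (ratio 0.997, 0.917 to 1.08) and Tpi1 (1.07, 0.936 to 1.22) did not differ beyond counting error on the contractile side. On the cartilage side Aldoa was higher in KO (1.18, 1.08 to 1.29), and Tpi1 was within counting error (1.05, 0.907 to 1.23). Pkm was higher by 1.41-fold on the cartilage side (1.3 to 1.54), with a contractile-side ratio of 1.09 (1.00 to 1.19). Eno1 was higher in KO on the contractile side (1.70, 1.5 to 1.92) and on the cartilage side (3.16, 2.74 to 3.65). Ldha was higher by 1.19-fold (1.06 to 1.34) and 1.74-fold (1.58 to 1.92) on these sides. Pgam1 was higher by 2.94-fold (1.62 to 5.09) on the contractile side, where KO 4M held 17 of its UMIs, and by 7.51-fold (2.91 to 27.7) on the cartilage side, where Apoe 4M held 4. Gpi1 was lower on the contractile side (0.793, 0.679 to 0.921) and within counting error on the cartilage side (1.06, 0.892 to 1.28). The contractile side of KO 4M rests on 93 cells. All of these are ratios of CPM, and no median gene of either side was set beside them.

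**Figure D5:**
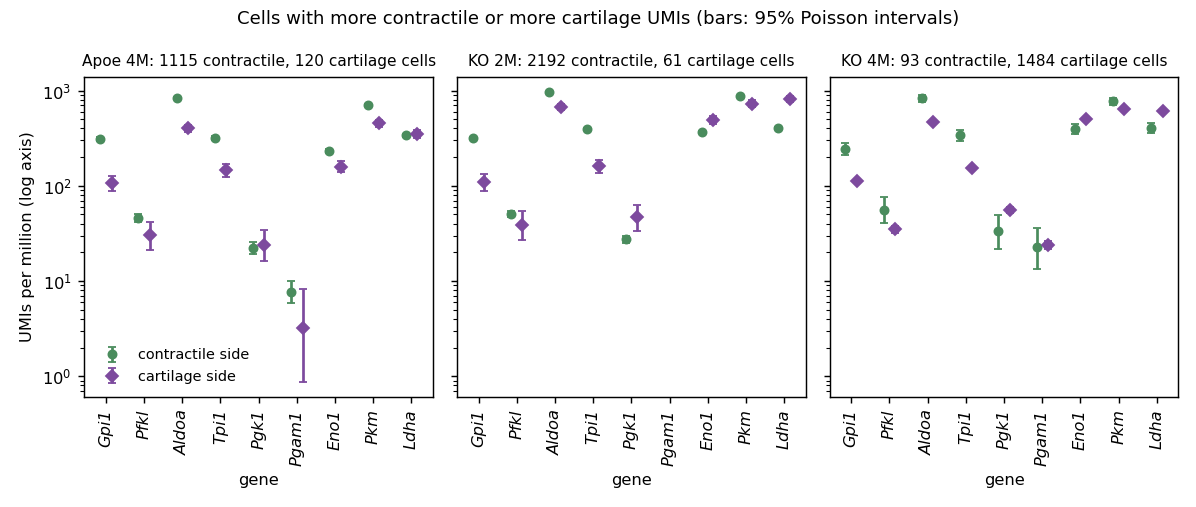
CPM of the 9 enzymes in contractile-side cells (green circles) and cartilage-side cells (purple diamonds) of the 3 libraries with at least 50 cells on each side, on a log axis with 95% Poisson intervals. Gpi1, Tpi1 and Aldoa are lower on the cartilage side in all 3 panels, while Ldha and Eno1 are higher on it in KO 2M and KO 4M but not in Apoe 4M. The median gene, not drawn, is also lower on the cartilage side of these 3 libraries.

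At the end of the transcript, sequence shared with annotated copies bears on 1 member. Of the 411 windows of 90 bases in the last 500 bases of each transcript, 0 were found exactly in another annotated transcript for 8 of the 9 members. For Eno1 it was 219 windows (53.3%), all 219 shared with Eno1b, a gene of near-identical sequence, and 5 with the processed pseudogene Gm4735. At 95% identity over 90 bases, Eno1 had 4 genes with a near copy of its end, 3 of them pseudogenes, and the other members 0. Elsewhere in the transcript Tpi1, Pgk1, Pgam1, Pkm, Ldha and Gpi1 each share windows with 1 to 3 annotated pseudogenes, and none of these is in the tables. Pgk1 shares 1166 windows with Pgk1-rs7 and 1163 with Gm5537, and Pgam1 shares 676 with Pgam1-ps2. Whether reads were lost to such copies was not tested. Unannotated copies were not searched. Eno1b was at 59.0, 64.4, 30.0 and 86.7 CPM in Apoe and 93.3, 85.3, 43.1 and 66.7 CPM in KO, lowest in both 2M libraries. Gm4735 was listed in KO 2M alone, at 68.1 CPM. Summed with both, Eno1 was at 285, 296, 279.8 and 309 CPM in Apoe and 408, 377, 483 and 565 CPM in KO, again without overlap of the genotypes. With that sum the KO slope was 0.14 and no longer passed (adjusted limma p 0.0926), and the genotype effect was 0.63 (0.301).

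The other genes of the pathway and its branches were read from lists. Of 31 other glycolysis and glucose entry genes, 19 were in the tables and 15 were tested. In the KO slope 0 of the 15 rose and 6 fell (8.47% and 21.4% of all genes did), with a median slope of -0.16 against -0.08 over all genes. They were Gapdh, glyceraldehyde-3-phosphate dehydrogenase (-0.35), the platelet-type phosphofructokinase gene Pfkp (-0.43), Ldhb (-0.35), Pfkfb3, which makes the activator of phosphofructokinase (-0.37), the insulin-responsive glucose transporter gene Slc2a4 (-1.22) and the lactate exporter gene Slc16a3 (-1.15). Slc2a4 and Slc16a3 are listed at 0 in KO 4M, so their slopes rest on that listing. For Gapdh 79.8% of the end windows are shared with other genes, so its level is uncertain. No gene of the list passed for genotype, where the median was -0.29, with Pfkfb3 at -1.20 (adjusted limma p 0.286), Hk2, a hexokinase of the first step, at -0.70 (0.294) and Bpgm at -0.65 (0.379). The members' median genotype effect was 0.15, and that of all genes -0.08.

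Downstream of pyruvate, 6 of 10 tested genes of its entry into mitochondria fell in the KO slope and 0 rose (21.4% and 8.47% of all genes), with a median of -0.21. These were the pyruvate carrier gene Mpc2, the pyruvate dehydrogenase subunit gene Dlat, the inhibitory kinase genes Pdk2, Pdk3 and Pdk4, and the phosphatase gene Pdp1. Pdk4 and Pdp1 are at 0 in KO 4M. In the citrate cycle 6 of 15 fell and 0 rose (21.4% and 8.47% of all genes), with a median of -0.21, led by citrate synthase, Cs, at -0.47, with Ogdh, Suclg1, Suclg2, Sucla2 and Fh1. Among side branches 3 of 17 fell and 2 rose, against the same 21.4% and 8.47% of all genes. Those that fell were the glycogen phosphorylase gene Pygb (-0.62), G6pdx of the pentose phosphate path (-0.43) and Pgm1 (-0.27). The serine synthesis genes Phgdh (0.31) and Psph (0.31) rose, and the median was -0.02.

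Of 25 tested hypoxia response genes, 5 rose and 7 fell in the KO slope (8.47% and 21.4% of all genes did), with a median of -0.02. Those that rose were Bhlhe40 (0.83), Hilpda (0.78), Ndrg1 (0.52), Plod2 (0.44) and Hif1a (0.34), the gene of the HIF-1 alpha subunit. Those that fell were Adm (-1.15), Egln1 (-0.33), Kdm3a (-0.18) and Fam162a (-0.23), and Egln3, Ankrd37 and Loxl2, all 3 at 0 in KO 4M. Hilpda stood at 11.8 to 21.5 CPM in Apoe, 10.8 to 20.8 in KO ND, 1M and 2M and 90.3 CPM in KO 4M. Adm, the adrenomedullin gene, was at 116 to 216 CPM in Apoe, 108 to 203 CPM in the first 3 KO libraries and 6.0 CPM in KO 4M. None of these genes passed without KO 4M, as no gene of the table did.

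The mean standardised log2 profile of the 8 members listed in all libraries was set against 7986 other genes, as a description over 8 libraries that share depth and the KO 4M library. The 5 genes with the highest Pearson r were Mlf1 (0.98), Mrpl51 (0.98), Glod4 (0.97), Psmd10 (0.96) and Exosc4 (0.96). Without KO 4M their r values were 0.98, 0.97, 0.99, 0.97 and 0.95. Mlf1 was at 7.31 to 11.8 CPM in Apoe, at 18.1, 21.5 and 33.5 CPM in KO ND, 1M and 2M, and at 8.14 CPM in KO 4M. This averaged profile is highest in KO 2M and leaves out the split at 4M, where members of opposite direction cancel.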

How the data were processed

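The 6 deposited tables hold log2 values per cell and gene, scaled by the authors with trimmed-mean factors per the tables' names. Tools named in the submitters' processing notes are Subread 1.6.0, featureCounts, STAR and UMI-tools, and the build is GRCm38. The annotation release and read length are not given in the sources used here. Raising 2 to each value and subtracting 1 gave, within a cell, whole multiples of 1 step for 100% of entries (tolerance 0.01), and these multiples were used as UMI counts. Each library is in 2 tables, with 0 differing entries, and any pair of libraries shared at most 9 barcodes. Counts were summed per library (totals of listed genes only). Levels have exact Poisson intervals, ratios exact conditional binomial intervals, shares Clopper-Pearson intervals.

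The test was limma 3.58.1 (R 4.3.3, trend and robust eBayes) on log2(CPM + 1) of 9253 genes (mean share of cells with a UMI at least 5%), with 3, 5 and 4 residual degrees of freedom for the genotype effect, the common slope and the separate slopes. The threshold was an adjusted p of 0.05. The fits were also run on simulated libraries with independent noise. None of these stood apart over the whole table as KO 4M does, so that run does not bear on calls that rest on KO 4M. Positions are from GENCODE vM21, where 11438 of 11446 identifiers had a symbol, and promoters from RefSeq. Shared windows were searched in the vM21 transcripts and near copies with blastn 2.17.0. The members were given by name, and from the lists the genes that passed, and those with the largest effects, are named. Members and lists were chosen with earlier results of these data known. Alternatives were other scalings, filters, added constants and left-out libraries or cells, and the sum of Eno1 with Eno1b and Gm4735 was added after seeing the data.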

Additional observations from a re-analysis of the deposited data

Results flagged for a closer look

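For 3 enzymes the KO library was above the Apoe library on ND, 1M and 2M and below it at 4M, each time beyond counting error. At 4M the ratio of KO to Apoe was 0.631 for Aldoa, 0.546 for Tpi1 and 0.813 for Pfkl. The difference between the diets was not tested, since each had 1 library per genotype. The share of all genes with such a turn at 4M was not counted. Scaled to the median of ratios, the 4M ratio was 0.758 for Aldoa, 0.655 for Tpi1 and 0.976 for Pfkl, so that of Pfkl is near 1 on that scale. Within contractile-side cells at 4M the ratio of KO to Apoe was 0.997 for Aldoa (0.917 to 1.08), 1.07 for Tpi1 (0.936 to 1.22) and 1.22 for Pfkl (0.864 to 1.68). These are ratios of CPM, with no median gene of that side beside them.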

How the results depend on the processing

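The fits rest on single libraries, and a count of genes passing is set largely by KO 4M. The number passing for the genotype effect, 2, was 17 on mean log2 values, 5 without trend and robust settings, 1 with median of ratios scaling, with no filter or with cells weighted equally, and 0 among genes listed in all 8 libraries and without both ND, both 1M or both 2M libraries. It was 951 without both 4M libraries and 885 without KO 4M. For the common slope, 1 became 364 on mean log2 values, 2 with no filter, 12 among genes listed in all 8, 9 with 10 CPM added in place of 1, 15 without both 4M libraries and 10 without KO 4M. It became 0 with cells weighted equally, by rank of time and without both ND, 1M or 2M libraries. For the KO slope, 2765 became 1794 without both ND, 4520 without both 2M and 4 without both 4M libraries, and 0 without both 1M libraries, without KO 4M and by rank of time. For the difference of slopes, 0 became 1376 without both 2M and 1 without both 4M libraries. Where limma gave 0, unadjusted p-values under 0.05 numbered 198 to 3002.

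Of the members, the genotype effect of Aldoa turned to 0.082 on mean log2 values, 0.054 with median of ratios scaling and 0.18 without both 4M libraries or KO 4M, and that of Tpi1 to 0.093, 0.072 and 0.28. Without both 4M libraries or without KO 4M the KO slope turned to 0.079 for Aldoa, 0.046 for Tpi1, 0.014 for Pfkl and -0.45 for Pgk1, and the difference of slopes of Gpi1 to 0.055 and 0.046. The near-zero KO slopes turned to -0.011 (cells weighted equally) and -0.057 (rank of time) for Pgk1, and for Pkm to -0.0099 (cells weighted equally) and -0.040, -0.010 and -0.011 without both ND, 1M and 2M libraries. The 4M ratio of Pkm turned to 1.15 with median of ratios scaling. The causes were not tested. Of 26 ratios between sides, all 26 stayed within their intervals without cells near the limit. The call of Ldha in the KO slope was lost in 5 of 14 alternatives and that of Gpi1 in 4 of 14. The genotype effect compares the genotypes within each diet, and the labels give no replicate numbers to block on.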

Other observations

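Eno1b, which shares 219 of the 411 end windows of Eno1, was at 30.0 and 43.1 CPM in the 2M libraries of Apoe and KO and at 59.0 to 93.3 CPM in the other 6. Gm7336, a processed pseudogene that shares 328 end windows with Gapdh, had the same low pair, at 17.0 and 22.6 CPM in the 2M libraries against 35.1 to 71.1 CPM in 5 of the others and 11.3 CPM in KO 4M. Gm4735 was listed in KO 2M alone and Gm5559, another copy of Gapdh, in Apoe ND alone, at 133 CPM.

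Serine is made from the glycolytic intermediate 3-phosphoglycerate. Psat1, its second enzyme, was at 6.66 to 10.5 CPM in Apoe, 12.8 to 15.9 CPM in KO ND, 1M and 2M and 30.3 CPM in KO 4M, with no overlap of the genotypes and a genotype effect of 0.99 ± 0.20 (SE, adjusted limma p 0.290, higher in KO on 4 of 4 diets). Hk2 ran the other way, at 113 to 157 CPM in the 4 Apoe libraries and 72.9 to 97.0 CPM in the 4 KO libraries. How many genes of the whole table separate the genotypes in this way was not counted.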
